A study of Mus musculus with 24 samples.

Results

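The genes described here encode 10 S100 proteins, *S100a1*, *S100a3*, *S100a4*, *S100a6*, *S100a8*, *S100a10*, *S100a11*, *S100a13*, *S100a16* and *S100b*, of the 22911 gene symbols that the array measures. They were chosen by their measured levels in the lines compared here, so that these levels and their differences are a description and carry no test. Each gene is represented by its probe with the highest mean signal. A level is the log2 signal of that probe minus the 75th percentile of its array, so that a level of 0 equals this percentile and 1 unit is a doubling. The signal was called above background where the scanner software marked the spot as well above it. Levels of different probes cannot be set against each other, so each gene is compared between lines and not with another gene.

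Total RNA of mouse melanoma and leukemia lines grown in culture was measured on 24 arrays of 1 colour, spread over 3 slides. B16-M is the parental melanoma line, a B16-F1 line carrying green fluorescent protein (3 arrays), and B16-D was recovered from a mouse after a year of dormancy (4 arrays, of which 3 were used). B16-D-733 (4 arrays), B16-D-735 (3) and B16-D-739 (3) are dormant lines derived from B16-D, and the sources used here do not say which of them is which of the study's lines from a passage of B16-D in the brain. M0-p20 (4 arrays) and J365-p20 (3) are leukemia lines, and their reading as DA1-3b myeloid leukemia cells and their dormant derivative rests on the only leukemia comparison that the study describes. The dormancy models were set up in syngeneic mice vaccinated with irradiated cells that overexpressed interleukin-12 (leukemia) or GM-CSF (melanoma). Whether the mice of the lines derived from B16-D were vaccinated is not stated. All dormant lines were expanded in vitro, so that every line stands for the cells that survived isolation and culture. Nothing states that the arrays of a line come from separate cultures, and the spread between them may be technical. Replicates 1 and 3 of B16-D-733, both on slide 3, carry the same number and date in their titles and may be the same sample. The line is counted as 4 arrays throughout.

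S100 proteins are small calcium sensors that pair with each other and, when calcium rises, open a surface that grips target proteins. Inside the cell they act on annexins, the cytoskeleton and kinases, and several are released and bind receptors such as RAGE (*Ager*). S100B has long been used in the clinic as a serum and tissue marker of melanoma, S100A4 is known from metastasis, and S100A8 pairs with S100A9 in neutrophils and monocytes.

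The genes lie in a cluster on chromosome 3 with *S100b* apart from it: 9 of the 10 are on chromosome 3 and *S100b* is on chromosome 10. In the RefSeq order *S100a1* is followed by *S100a13*, *S100a14*, *S100a16*, *S100a3*, *S100a2*, *S100a4*, *S100a5* and *S100a6* with no other protein-coding gene between them, while 54 other protein-coding genes separate *S100a7l2* from *S100a11* and *S100a10*. A promoter was listed for 9 of the 10 genes in the RefSeq table (build GRCm38.p6), with *S100a10* missing. The 250 bases before the start are printed for the genes that varied most between the melanoma lines, namely *S100b*, which lay lower in B16-D than in B16-M, and the neighbours *S100a6* and *S100a4*, which lay higher. The stretch of 104 bases between the starts of *S100a1* and *S100a13*, which are read in opposite directions from it, is printed because only *S100a1* had arrays that did not overlap between B16-D and B16-M. Capitals mark a TATAAA motif.
S100b, chr10:76253586-76253835, plus strand: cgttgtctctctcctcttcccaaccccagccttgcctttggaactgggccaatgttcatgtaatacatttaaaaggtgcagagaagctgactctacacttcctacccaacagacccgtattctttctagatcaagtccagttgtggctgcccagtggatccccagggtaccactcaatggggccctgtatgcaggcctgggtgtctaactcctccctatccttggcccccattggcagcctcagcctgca
S100a6, chr3:90612644-90612893, plus strand: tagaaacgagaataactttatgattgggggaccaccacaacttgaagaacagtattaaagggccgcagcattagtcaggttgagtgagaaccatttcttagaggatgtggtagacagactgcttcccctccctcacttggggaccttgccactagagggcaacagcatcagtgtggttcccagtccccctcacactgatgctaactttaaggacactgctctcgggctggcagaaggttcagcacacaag
S100a4, chr3:90603520-90603769, plus strand: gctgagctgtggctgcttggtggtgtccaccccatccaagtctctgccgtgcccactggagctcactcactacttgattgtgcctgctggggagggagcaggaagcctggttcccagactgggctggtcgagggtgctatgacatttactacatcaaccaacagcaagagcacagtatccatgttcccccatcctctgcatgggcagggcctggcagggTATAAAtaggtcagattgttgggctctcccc
S100a1 and S100a13, chr3:90514331-90514434, plus strand: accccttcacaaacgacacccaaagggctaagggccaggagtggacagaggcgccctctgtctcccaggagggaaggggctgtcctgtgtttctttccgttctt
Both strands were searched. The only match in these windows was the TATAAA of *S100a4*, a motif held by 12.4% of all 32851 promoters of the same length in the table. The other motifs searched, with no match here, were the E-box spelled CACGTG, held by 6.02% of the promoters, and the E-box spelled CATGTG, held by 12.3%. The AP-1 motif TGANTCA is held by 6.75% of them and the GC box GGGCGG by 32.7%.

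Markers of the labelled cell types were present. All 9 pigment cell markers (*Mitf*, *Tyr*, *Dct*, *Mlana* and others) were detected in each melanoma line, where their linear signals, in multiples of the 75th percentile, summed to 1570 to 1900 per array, against 1.5 to 6.45 on the leukemia arrays. Of 9 blood cell markers 8 were detected in both leukemia lines, *Ptprc* and *Spi1* included, with sums of 54.9 to 76.2 against 0.833 to 1.61 in melanoma. The lists were not exclusive: 4 to 5 of the blood markers were detected in the melanoma lines (*Fcer1g*, *Kit*, *Csf2rb* and *Coro1a* in each, *Mpo* in B16-D-733, but not *Ptprc* or *Spi1*), *Kit* in no leukemia line, and *Mitf*, *Tyr* and *Sox10* were detected in both leukemia lines and *Pmel* in M0-p20. B16-D replicate 2 stood apart, with 90.3% of its spots above background against 46.0% to 55.8% on the other 23 arrays, and was left out. B16-D replicate 0 differed from replicates 1 and 3 in several of the genes below. Its title gives the name of the line incompletely and was read as B16-D. The title also lacks the date that those of replicates 1 and 3 carry. All B16-M titles lack the date too, and the part of this difference in the results was not tested. In such bulk RNA, fewer cells expressing a gene and less RNA per cell cannot be told apart.

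*S100b* was abundant in every melanoma line and was not above background on any leukemia array. Its levels were 4.84, 4.84 and 5.24 in B16-M replicates 0, 1 and 2 and 4.28, 3.33 and 3.23 in B16-D replicates 0, 1 and 3. All B16-D arrays lay below all B16-M arrays, and replicate 0 lay nearest to them. The mean was 4.97 ± 0.23 (SD, n = 3) in B16-M and 3.62 ± 0.58 (n = 3) in B16-D, a log2 difference of -1.36 with a standard error of 0.23, or 2.56-fold lower. It was -1.69 without B16-D replicate 0, -1.43 among the arrays of slide 1 and -1.61 among those of slide 3, and the arrays of B16-D and B16-M on slide 2 could not be compared because the only B16-D array there is replicate 2. Replicate 0 alone, set against B16-M without dates in the titles on either side, gave -0.69.

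The derived lines split over *S100b*. B16-D-733 gave 3.32, 3.1, 3.19 and 3.25 (3.22 ± 0.09, n = 4) and B16-D-739 gave 3.25, 3.31 and 3.49 (3.35 ± 0.13, n = 3), and both overlapped B16-D. B16-D-735 gave 5.03, 5.41 and 5.43 (5.29 ± 0.23, n = 3), above every B16-D array and overlapping B16-M. The log2 difference of B16-D-735 from B16-D was 1.68 with a standard error of 0.23, or 3.20-fold higher, with 1.61 on slide 1 and 2.20 on slide 3. Of 8 fibroblast genes 5 were detected in B16-D-735 and 5 in B16-D (*Dcn* only in the former, *Pdgfra* only in the latter, *Lum* and *Thy1* in neither). The list summed to 1.25 to 1.63 times the 75th percentile in B16-D-735, above the 0.637 to 0.861 in B16-D. Of 8 glial and neuronal genes 7 were detected in both (not *Olig2*), with overlapping sums of 15.1 to 22.4 and 12.6 to 15.3. B16-D-733 gave 16.7 to 18.2 for this list. The part of these markers in the differences of B16-D-735, here and below, was not tested. In order of the means, B16-D-735 and B16-M overlapped each other, and so did B16-D, B16-D-739 and B16-D-733 in turn. B16-M exceeded M0-p20 1492-fold by a bound set from the lowest signals above background in the main processing. With another background correction (normexp) the log2 difference was smaller, at 7.84. M0-p20 stood at -6.88 to -6.08 and J365-p20 at -7.31 to -6.81, all without a signal above background. Across the 16 melanoma arrays, the genes whose levels followed *S100b* most closely were *Spaca9* (Pearson r = 0.983) and *Plxnc1* (r = 0.974), out of 13053 genes compared. These arrays share 5 lines and 3 slides, so the values describe the arrays.

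*S100a1*, whose product is best known for acting on calcium release channels in muscle, resembled *S100b* across the melanoma lines over a smaller range. B16-M gave 2.95, 2.33 and 2.40 (2.56 ± 0.34, n = 3) and B16-D gave 2.18, 1.03 and 1.39 (1.53 ± 0.59, n = 3). The arrays of these lines did not overlap, although B16-D replicate 0 lay close to the lowest B16-M array. The log2 difference was -1.03 with a standard error of 0.26, -1.35 without B16-D replicate 0, -0.80 on slide 1 and -1.56 on slide 3. Replicate 0 alone, the only B16-D array without a date in its title, gave -0.38. B16-D-735 gave 2.44, 2.11 and 2.11 (2.22 ± 0.19, n = 3) and overlapped both B16-M and B16-D. The other derived lines were lower, at 1.09 to 1.67 in B16-D-733 (1.44 ± 0.25, n = 4) and 1.54 to 1.80 in B16-D-739 (1.66 ± 0.13, n = 3). Unlike *S100b*, *S100a1* was above background on all arrays of the leukemia lines, at 1.37 ± 0.11 (n = 4) in M0-p20 and 1.31 ± 0.13 (n = 3) in J365-p20, which overlapped. The level in B16-M exceeded that in M0-p20 by 1.20 with a standard error of 0.22, and by 0.95, 1.06 and 1.49 on slides 1, 2 and 3. The closest genes over the melanoma arrays were *Epb41l1* (r = 0.932) and *Otos* (r = 0.928).

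*S100a6* (calcyclin), which binds the ubiquitin ligase adaptor encoded by *Cacybp*, ran the other way and over the widest range in melanoma. It stood at -4.06, -2.66 and -2.26 in B16-M (-2.99 ± 0.94, n = 3) and at 3.23, -0.07 and -0.06 in B16-D replicates 0, 1 and 3 (1.03 ± 1.90, n = 3). All B16-D arrays were above all B16-M arrays, with replicate 0 far above the others. The log2 difference was 4.02 with a standard error of 0.78, or 16.3-fold higher, and 2.92 without B16-D replicate 0. Within slides it was 3.84 (slide 1) and 3.99 (slide 3), and replicate 0 alone gave 6.22.

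Each derived line kept *S100a6* above B16-M, on every array. B16-D-733 gave 2.33, 1.06, 1.25 and 1.15 (1.45 ± 0.59, n = 4) and B16-D-739 gave 0.63, 0.07 and 0.49 (0.40 ± 0.29, n = 3), both within the range of B16-D. B16-D-735 was lower, with -1.87, -0.23 and -0.65 (-0.92 ± 0.85, n = 3), below every B16-D array and above every B16-M array. Its log2 difference from B16-D was -1.95 with a standard error of 0.78, and it was -0.85 without B16-D replicate 0, -1.81 on slide 1 and -0.59 on slide 3. No title of B16-D-735 carries a date, and against replicate 0, the only B16-D array without one, its differences were -4.15 for *S100a6*, 1.01 for *S100b*, 0.04 for *S100a1* and -2.38 for *S100a4*. The leukemia lines exceeded all melanoma lines, at 4.68, 5.83, 5.41 and 5.22 in M0-p20 (5.28 ± 0.48, n = 4) and 4.44, 4.51 and 4.70 in J365-p20 (4.55 ± 0.13, n = 3). The difference between B16-M and M0-p20 was -8.28 with a standard error of 0.64. J365-p20 was lower than M0-p20 by a log2 difference of -0.73 with a standard error of 0.27, and their arrays overlapped. *Ptbp2* (r = 0.946) and *Uchl1* (r = 0.945) followed *S100a6* most closely over the melanoma arrays.

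*S100a4* (metastasin), which binds non-muscle myosin, is separated from *S100a6* on the chromosome by *S100a5* alone and varied in the same direction in melanoma. Its levels were 0.08, 0.64 and 1.04 in B16-M (0.59 ± 0.48, n = 3) and 2.96, 1.06 and 1.27 in B16-D (1.76 ± 1.04, n = 3). The lines did not overlap, but the lowest B16-D array lay just above the highest B16-M array. The log2 difference of 1.18 with a standard error of 0.42 depended on B16-D replicate 0, without which it was 0.58. It was 0.97 on slide 1 and 1.19 on slide 3, and replicate 0 alone gave 2.37. B16-D-735 gave 0.32, 0.99 and 0.44 (0.58 ± 0.36, n = 3), below every B16-D array and within the range of B16-M, a log2 difference of -1.18 from B16-D (SE 0.42), -0.58 without B16-D replicate 0. B16-D-733 (1.64 ± 0.29, n = 4) and B16-D-739 (1.26 ± 0.20, n = 3) overlapped B16-D. *Ctsl* (r = 0.934) and *Snapc5* (r = 0.921) were closest to it over the melanoma arrays.

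*S100a4* was also the only 1 of the 10 genes whose arrays did not overlap between the leukemia lines, beside 8.31% of 22971 genes tested. M0-p20 gave 4.27, 5.22, 4.92 and 4.76 (4.79 ± 0.40, n = 4) and J365-p20 gave 5.78, 5.50 and 5.71 (5.67 ± 0.15, n = 3). The log2 difference was 0.87 with a standard error of 0.24, or 1.83-fold higher in J365-p20, and was 0.50, 1.27 and 0.58 on slides 1, 2 and 3. Both lines were above every melanoma array, and B16-M was lower than M0-p20 by a log2 difference of -4.21 with a standard error of 0.35. *S100a4* passed the threshold of the fit in neither comparison of B16-D with B16-M nor of J365-p20 with M0-p20, and B16-D-735 and B16-D-739 overlapped B16-M.

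**Figure D1:**
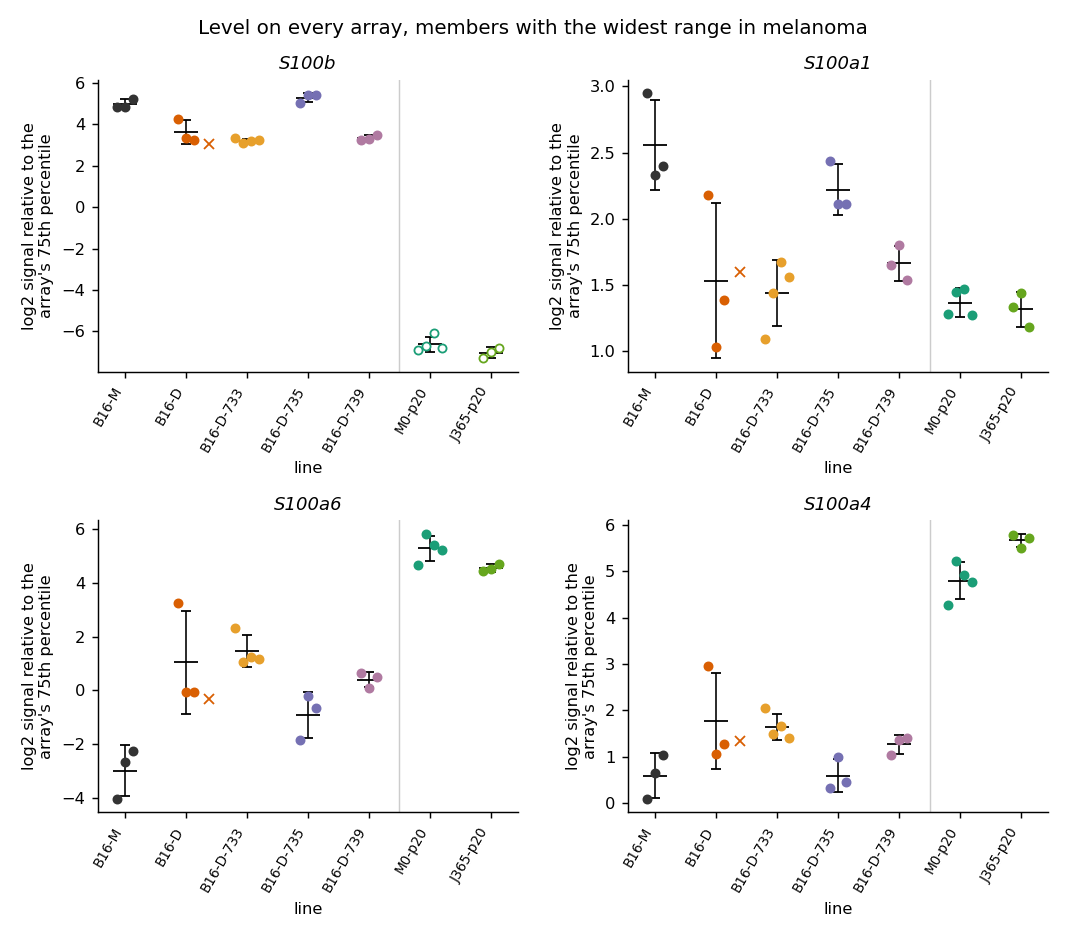
Levels of *S100b*, *S100a1*, *S100a6* and *S100a4* on every array, on the y axis as log2 signal relative to the 75th percentile of the array, by line on the x axis. Points are arrays (open where not above background, a cross for B16-D replicate 2, which was not used), and the bars give the mean and SD of a line. *S100b* and *S100a1* are highest in B16-M and B16-D-735, *S100a6* and *S100a4* are highest in the leukemia lines, and *S100b* is at the background there.

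*S100a10*, the partner of annexin A2 that no longer responds to calcium, was the steadiest of the genes above background on every array. Its line means ran from 3.37 to 3.93 and B16-D differed from B16-M by 0.06 with a standard error of 0.13. B16-D-735 was the exception, with 3.35, 3.33 and 3.43 (3.37 ± 0.05, n = 3) against 4.09, 3.75 and 3.80 in B16-D (3.88 ± 0.18, n = 3). No array of another line was as low. The log2 difference from B16-D was -0.51 with a standard error of 0.13, or 1.42-fold lower, -0.59 on slide 1 and -0.37 on slide 3. A further probe of the gene gave the same picture, at 1.46 to 1.62 in B16-D-735 and 1.75 to 2.81 on the 20 arrays of the other lines.

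*S100a11*, a partner of annexin A1, had line means between 1.29 in B16-D-735 and 2.02 in B16-D, and every line overlapped its neighbours in this order. The high mean of B16-D came from replicate 0, which gave 3.08 where replicates 1 and 3 gave 1.75 and 1.22. Without it the difference from B16-M turned from 0.18 to -0.35. B16-D-735 differed from B16-D by -0.72 with a standard error of 0.39, by -0.85 on slide 1 and 0.07 on slide 3, and from replicate 0 alone by -1.79. *S100a13*, which takes part in the release of FGF1 and interleukin-1 alpha, had line means from 1.23 in B16-D-733 to 1.83 in J365-p20, again with overlap between all neighbours. B16-D differed from B16-M by -0.30 with a standard error of 0.25. The gene shares its start region with *S100a1* (printed above), and B16-M was 1.66 ± 0.37 (n = 3) against 1.36 ± 0.46 (n = 3) in B16-D.

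*S100a3*, known from the hair cuticle, was close to the background, with a signal above it on 12 of the 23 arrays and on no B16-M array. Its line means ran from -5.07 in B16-M to -4.52 in J365-p20, and no line had it above background on every array. *S100a8*, the neutrophil and monocyte protein, was above background on 0 of the 23 arrays. No order of the lines can be read for either gene.

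**Figure D2:**
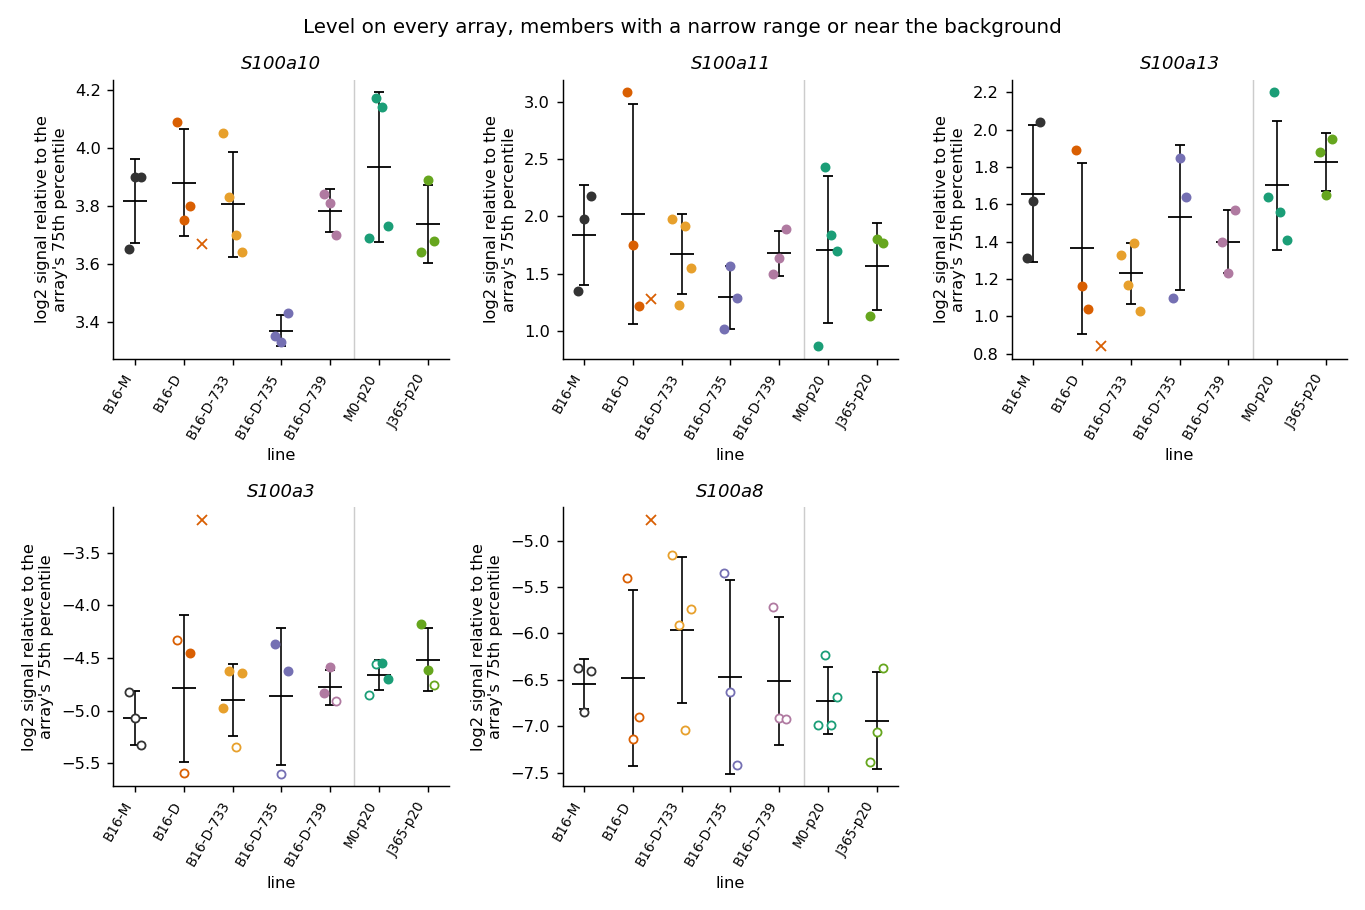
Levels of *S100a10*, *S100a11*, *S100a13*, *S100a3* and *S100a8* on every array, drawn with the same axes and symbols as for the genes of wider range, each panel with its own y scale. The 3 arrays of B16-D-735 lie lowest for *S100a10*, B16-D replicate 0 stands out for *S100a11*, and all used arrays of *S100a8* are open, that is, not above background.

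*S100a16*, a widely expressed member of the family, had probes that disagreed. Its brightest probe gave -0.06 to 0.68 on the 8 arrays of slide 1 and 1.83 to 2.71 on the 15 arrays of slides 2 and 3, whatever the line. In B16-M, for example, it gave 2.31 (slide 3), 2.05 (slide 2) and 0.34 (slide 1). Of 20861 probes above background on all 23 arrays, 1094 (5.24%) were lower on every array of slide 1 than on all others, and this probe was the only one of the S100 genes among them. Differences between lines from this probe, such as -0.48 with a standard error of 0.81 for B16-D against B16-M, therefore compare slides as well as lines.

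The other probe of *S100a16* separated the melanoma from the leukemia arrays, while melanoma lines next to each other in mean overlapped. Its arrays of slide 1 were the highest ones in B16-M, B16-D, B16-D-735 and B16-D-739, but not in B16-D-733 or the leukemia lines. The probe gave -2.45, -1.94 and -1.47 in B16-M and -0.39, -0.77 and -1.20 in B16-D, with all arrays of B16-D higher. The log2 difference was 1.17 with a standard error of 0.31, 0.89 on slide 1 and 1.26 on slide 3. B16-D-735 gave -2.28, -1.97 and -2.77, below every B16-D array by a log2 difference of -1.55 (SE 0.31), while B16-D-733 (-1.61 to -0.90) and B16-D-739 (-0.96 to -0.33) overlapped B16-D. No M0-p20 array and 2 of 3 J365-p20 arrays (-4.69 and -4.66) were above background, and B16-M exceeded M0-p20 7.61-fold by the same kind of bound as for *S100b*. Read through this probe, which was chosen after its values were seen, *S100a16* was higher in B16-D than in B16-M and B16-D-735, as *S100a6* and *S100a4* were, while its leukemia levels were lower than all melanoma levels and theirs were higher.

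**Figure D3:**
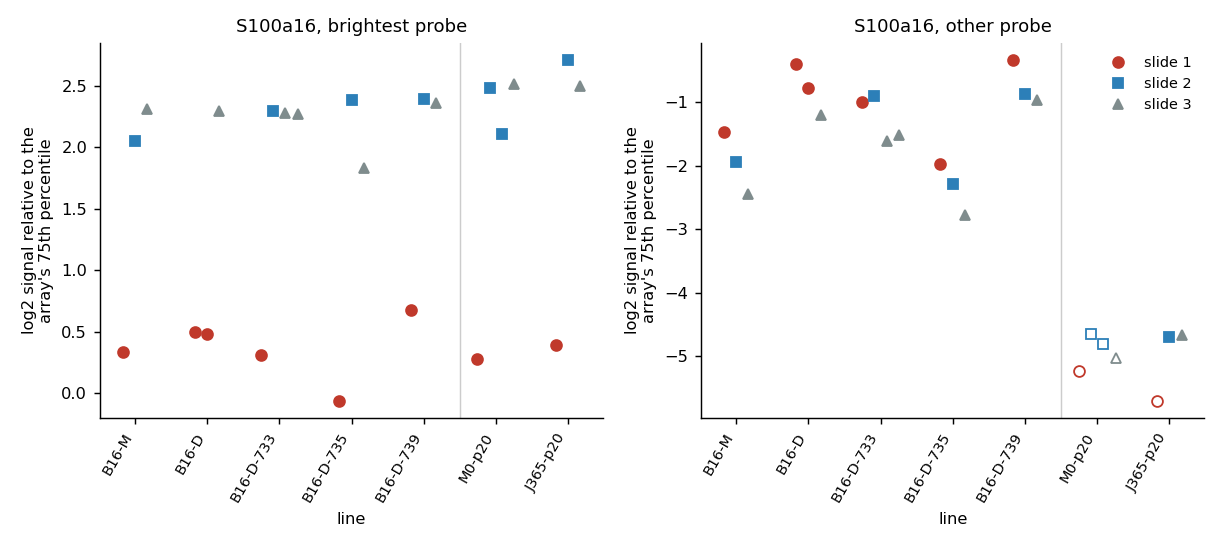
Levels of the brightest probe (left) and the other probe (right) of *S100a16* on each of the 23 arrays, as log2 signal relative to the 75th percentile of the array, by line. Symbols give the slide and are open where the signal was not above background. On the left the 8 arrays of slide 1 lie between -0.06 and 0.68. On the right the melanoma arrays lie above the leukemia arrays. Neighbouring melanoma lines overlap, with the means of B16-M and B16-D-735 lowest among them.

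Set against all genes, the counts were as follows, with limma, Benjamini-Hochberg adjustment over all genes tested and a threshold of 0.05. Between B16-D and B16-M, 3 of the 9 genes tested passed, *S100a6* higher and *S100b* and *S100a1* lower, beside 3.60% of the 24312 genes tested (2.00% higher and 1.60% lower). Of 16 other settings, *S100a1* passed in 5 and *S100a6* and *S100b* in 15 each, and with only the arrays of both lines in the fit none passed. With title date as a block *S100a4* passed and *S100a1* did not. The arrays of these lines did not overlap for 4 of the 9 (with *S100a4*), beside 17.3%. Their median log2 difference was 0.06 and that of all genes was -0.04. Between B16-D-735 and B16-D, 2 of 9 passed, *S100b* higher and *S100a10* lower, beside 8.0% (4.07% higher and 3.93% lower), and 4 did not overlap, beside 20.3%. *S100b* passed in 15 of 16 other settings and *S100a10* in 9. Without B16-D replicate 3 or any single array of B16-D-735, 1 of 9 passed. With title date as a block *S100a6*, *S100a4* and *S100a11* passed as well. None of 9 passed for B16-D-733 (0.481% of all genes) or B16-D-739 (0.308%) against B16-D, and at an unadjusted p under 0.05 there were 0 in both as well. All 9 overlapped with B16-D in both lines, where 4.30% and 7.67% of all genes did not. Between J365-p20 and M0-p20, 0 of 8 passed, beside 1.07% of 22971 genes, with 2 at an unadjusted p under 0.05, and 1 did not overlap, beside 8.31%. Between B16-M and M0-p20, 4 of 9 passed, *S100b* and *S100a1* higher and *S100a4* and *S100a6* lower, beside 56.2% of 26759 genes (25.2% higher and 31.0% lower), and the same number did not overlap, beside 53.9%. In the last comparison *S100b* entered the fit through the melanoma arrays alone, so its pass carries no weight as a test. The S100 genes were chosen with the values known, and nothing is read from their counts. The comparisons with B16-D share its 3 arrays, so that a high or low B16-D array moves all of them, and B16-M likewise enters 2 comparisons.

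**Figure D4:**
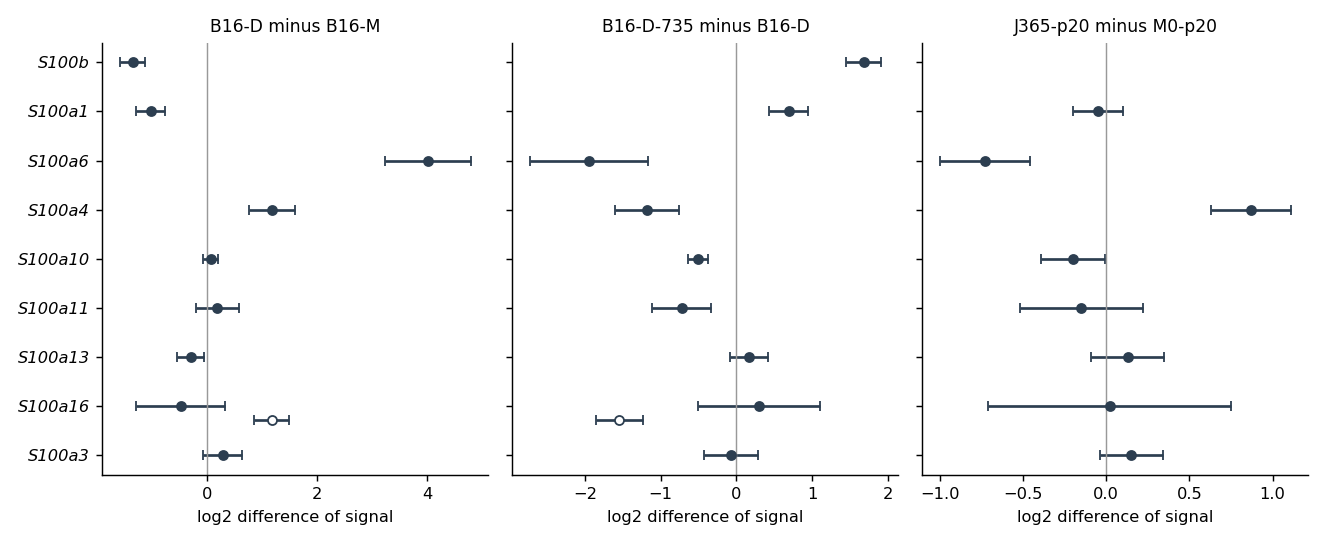
Log2 differences of signal (x axis) for the members tested (y axis) between B16-D and B16-M, B16-D-735 and B16-D, and J365-p20 and M0-p20. Points are fitted differences, bars are 1 standard error either way, and the open points show the other probe of *S100a16*. *S100b* and *S100a1* lie left of 0 in the first panel and right of 0 in the next, and *S100a6* and *S100a4* lie the other way round.

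The array also measures 8 further genes of the family. *S100a5* was above background on all 7 leukemia arrays, at -3.83, -2.93, -3.62 and -3.79 in M0-p20 and -3.20, -3.27 and -2.98 in J365-p20, and on none of the 16 melanoma arrays. M0-p20 exceeded B16-M 3.49-fold by a bound set from the lowest signals above background. *S100a5* entered the fit of all arrays through the leukemia arrays alone, so no p is given. *S100a2* was dim throughout, at -3.89 ± 0.85 (n = 3) in B16-M, -4.37 ± 0.72 (n = 3) in B16-D, -2.54 ± 0.20 (n = 4) in M0-p20 and -2.39 ± 0.30 (n = 3) in J365-p20. B16-M was lower than M0-p20 (log2 difference -1.35, SE 0.42, limma adjusted p = 0.0100), and B16-D and B16-M did not differ past the threshold (-0.47, SE 0.51, adjusted p = 0.71). In melanoma every used array of slide 1 (-4.9 to -4.13) lay below every used array of slides 2 and 3 (-3.69 to -3.15). The *S100a2* differences that involve melanoma lines therefore compare slides as well. *S100a9*, the partner of *S100a8*, was above background on 1 array of each leukemia line only, replicate 0 of M0-p20 (-1.01) and replicate 0 of J365-p20 (-1.49). *S100g* passed on J365-p20 replicate 3 alone (-4.20), and *S100a7a*, *S100a7l2*, *S100a14* and *S100z* on none of the 23 arrays. Neither of the comparisons of a dormant with a parental line called any of these genes, of which 1 was tested in melanoma and 2 in leukemia, and none had an unadjusted p under 0.05 in either.

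**Figure D5:**
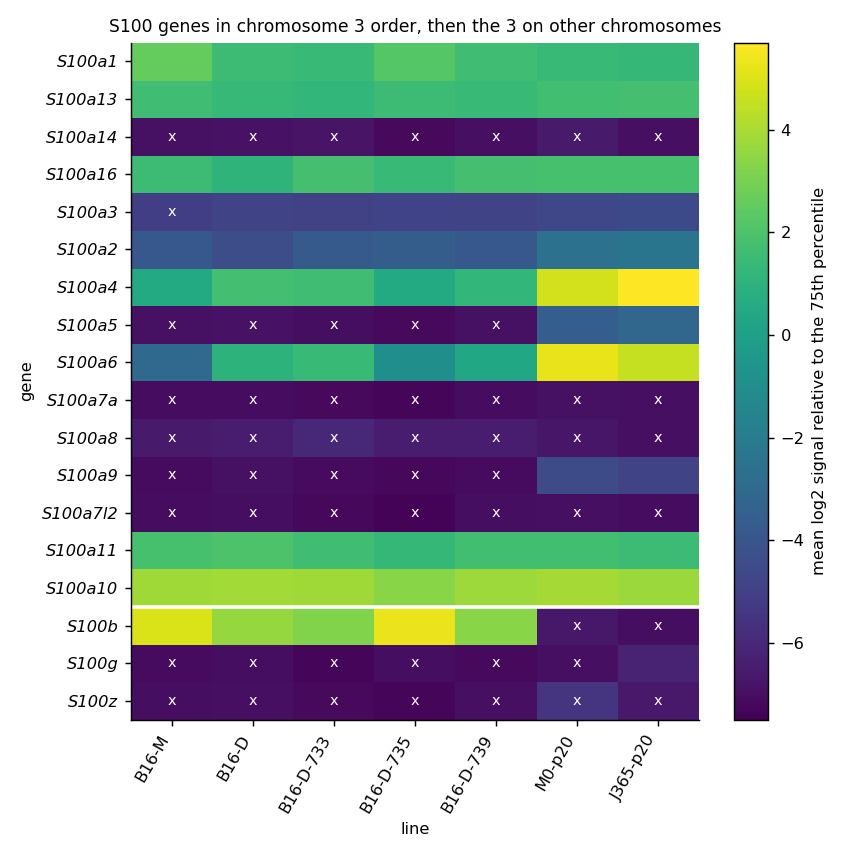
Mean level of each S100 gene by line, as log2 signal relative to the 75th percentile of the array (colour), with genes in their order on chromosome 3 from the top and the 3 genes of other chromosomes below the white line. A cross marks a line in which no array was above background. Rows are to be read across lines only, and neighbours such as *S100a4*, *S100a5* and *S100a6* are all higher in the leukemia lines than in any melanoma line.

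Of 41 listed partners of S100 proteins, 31 were tested between B16-D and B16-M and 1 passed, beside 3.60% of all genes, with 8 at an unadjusted p under 0.05. The median log2 difference of the partners was 0.02, and -0.04 for all genes. The gene that passed was *Stk38l*, the kinase NDR2, whose family is switched on by S100B. It rose in B16-D, from -0.20 ± 0.08 (n = 3) in B16-M to 0.28 ± 0.14 (n = 3), a log2 difference of 0.47 (SE 0.10, limma adjusted p = 0.0149) or 1.39-fold. Its arrays did not overlap, which held for 6 of the 31 partners tested, beside 17.3% of all genes. The call was lost without B16-M replicate 1 (0.43, adjusted p = 0.0750) or B16-D replicate 1 (0.41, adjusted p = 0.0717), with title date as a block (0.38, adjusted p = 0.0716), with B16-D replicate 2 (0.39, adjusted p = 0.0863), with no filter (adjusted p = 0.0771), with only the lines compared (adjusted p = 0.395) and with the mean of the probes of the gene (0.65, adjusted p = 0.141). All B16-M titles lack the date that all B16-D titles but that of replicate 0 carry. The change was not shown to differ from that in leukemia (difference of the changes 0.36, SE 0.15, adjusted p = 0.392).

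Other known partners, named here with their values, did not pass the test between B16-D and B16-M. *Anxa2*, the partner of *S100a10*, was 6.27 in B16-D and 6.29 in B16-M (difference -0.03, SE 0.21, adjusted p = 0.960). *Anxa1* was 5.14 and 4.68 (0.47, SE 0.23, adjusted p = 0.346), and *Cacybp*, the partner of *S100a6*, was 4.82 and 4.49 (0.32, SE 0.14, adjusted p = 0.241). *Myh9*, the myosin bound by *S100a4*, was 5.62 and 5.54 (0.08, SE 0.16, adjusted p = 0.835). The receptor gene *Ager* was 1.97 and 2.05 (-0.08, SE 0.12, adjusted p = 0.783), and *Tlr4*, the receptor of S100A8 with S100A9, was -0.09 and 0.34 (-0.43, SE 0.20, adjusted p = 0.307). These partners were singled out after their values were seen, to stand beside the S100 genes they bind.

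Between B16-D-735 and B16-D, 4 of 31 partners passed, beside 8.0% of all genes. *Plat* (1.69, SE 0.32, adjusted p = 0.00637) and *Sugt1* (0.41, SE 0.11, adjusted p = 0.0320) rose in B16-D-735, and *Tpm1* (-1.04, SE 0.17, adjusted p = 0.00174) and *Fgf1* (-0.63, SE 0.17, adjusted p = 0.0350) fell. They were named after their values were seen. *Plat* encodes tissue plasminogen activator, which S100A10 binds at the cell surface, and *Fgf1* encodes a growth factor released together with S100A13. None of the 31 passed for B16-D-733 or B16-D-739 against B16-D, with 1 and 2 at an unadjusted p under 0.05. Between J365-p20 and M0-p20, 0 of 29 passed in the limma fit, beside 1.07% of all genes, with 1 at an unadjusted p under 0.05. In the fit of all arrays, *Plat* and *Fgf1* entered through the melanoma arrays alone and *Cd69* through the leukemia arrays alone. Their passes carry no weight as a test, and they are named for this reason. Between B16-M and M0-p20, 24 of 32 passed, these included, 13 higher and 11 lower in B16-M, beside 56.2%. Among them *Anxa1* was higher in B16-M (3.22, SE 0.28, adjusted p = 6.72e-09) and *Tagln2*, an actin-binding protein gene, was lower (-7.39, SE 0.46, adjusted p = 4.67e-11), both named after their values were seen.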

How the data were processed

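Total RNA, labelled with Cy3, was hybridised by the authors to Agilent mouse arrays with 62976 spots, of which 59305 are no controls. The deposited values are spot intensities from Agilent Feature Extraction (10.7.3.1, per the submitters' processing notes), already background-subtracted and not scaled between arrays, and the deposited series table held the same intensity values on every array. The study names no test for its arrays. From the 24 arrays, 2468 spots marked as outliers were removed, none reached saturation, and the spots of a probe were averaged. Intensities were set to log2 and centred on the 75th percentile of each array. Probes were joined to 22911 symbols through RefSeq accessions, and the probe with the highest mean stood for a gene.

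Linear models were fitted per gene with limma 3.58.1 (R 4.3.3, two-sided, Benjamini-Hochberg, threshold 0.05) over genes above background on at least 3 arrays, in fits of 16 melanoma arrays (residual degrees of freedom 11), 7 leukemia arrays (5) and all 23 arrays (16). B16-D replicate 2 entered as an alternative. The fits were tested on simulated data. A bound was taken against the lowest signal of any probe above background on the array. Some probes were not called above background at higher levels, so a bound is not a firm limit. The genes, the partner list and the marker lists were chosen with earlier results of these data known. Named were all 10 members, every other S100 gene above background on at least 3 arrays, partners past the threshold between a dormant and a parental line, and, for members spanning over 1 log2 unit in melanoma, the 2 genes most correlated over its arrays. Genes outside this rule are marked in the text.

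Further marker lists were counted, a marker being detected where 50% or more of the arrays of a line had it above background. Of 10 neutrophil and macrophage genes 3 to 4 were detected in melanoma and 4 to 7 in leukemia lines, of 8 fibroblast genes 4 to 5 in melanoma and 1 in leukemia lines, of 5 endothelial genes 1 in each line, of 8 glial and neuronal genes 7 in melanoma and 4 in leukemia lines, and of 4 keratinocyte genes 0 to 3.

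Replicate numbers did not pair samples throughout, with residual correlations of same-numbered arrays from -0.54 to 0.67. The highest (0.67, 0.55 and 0.51) were between arrays on the same slide, and the part of the slide in them was not tested. Neither slide nor replicate number entered the main fits. Alternatives were normexp background correction (offset 50), here on the median signal because the files used hold no mean signal, quantile normalization, filters, the mean of probes, slide, title date and replicate number as blocks, only the lines compared, and leaving out each array. The number of arrays limits the precision. Python 3.11.15, numpy 2.4.6, pandas 2.3.3 and matplotlib 3.10.9 handled tables and figures.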

Additional observations from a re-analysis of the deposited data

Results flagged for a closer look

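Among the 28 sets of 4 arrays (B16-D-733 and M0-p20, over the probes of the 10 genes and of *S100a2* and *S100a5*) that were searched for an array far from the rest, 2 had one, where chance gives about 1.4. That figure takes the arrays as separate samples, which replicates 1 and 3 of B16-D-733 may not be. The brightest probe of *S100a16* was 0.31 on B16-D-733 replicate 2, the only array of this line on slide 1, against 2.27 to 2.29 on the other 3 arrays. *S100a6* was 2.33 on B16-D-733 replicate 0, the only array of the line whose title carries no date, against 1.06 to 1.25 on the others.

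On B16-D replicate 2, which no comparison used, 9 S100 genes were above background although they were so on no B16-M array. They were *S100a8* (-4.78), *S100a3* (-3.19), *S100a5* (-3.78), *S100a7a* (-4.86), *S100a7l2* (-2.75), *S100a9* (-3.05), *S100a14* (-1.83), *S100g* (-2.59) and *S100z* (-3.18). The same array had 90.3% of its spots above background. For *S100b* it gave 3.07, for *S100a6* -0.31, for *S100a4* 1.34 and for *S100a1* 1.60.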

How the results depend on the processing

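The count of S100 genes past the threshold between B16-D and B16-M was 3 and became 0 in a fit of only the lines compared. It ran from 2 to 3 when 1 array was left out. Between B16-D-735 and B16-D it was 2, and became 1 with no filter, 5 with title date as a block and 0 with only the lines compared, with 1 to 2 over the left-out arrays. It stayed at 0 for B16-D-733 and B16-D-739 against B16-D and for J365-p20 against M0-p20, and at 4 for B16-M against M0-p20, whichever array was left out. The count of partners between B16-D and B16-M was 1. It was 2 with quantile normalization, 2 with the stricter filter, 0 with no filter, 2 with slide as a block, 3 with title date as a block, 0 with only the lines compared and 0 with B16-D replicate 2, and 0 to 2 over the left-out arrays. With the replicate number as a block it was 3, and the block moved no other count by over 1.5 times. *Stk38l* kept its call in 9 of 16 settings.

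Over the 16 settings for B16-D against B16-M, the log2 difference ran from -1.69 to -0.99 for *S100b*, -1.35 to -0.78 for *S100a1*, 2.92 to 5.47 for *S100a6* and 0.58 to 1.93 for *S100a4*, with the causes not tested. For *S100b* between B16-M and M0-p20, normexp gave 7.84 in place of 11.60, where M0-p20 had no signal above background. The title date could not be fitted as a block in leukemia, where no title carries one. Dim genes (*S100a3*, *S100a8*) are limited by the signal over background.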
